A study of Mus musculus with 5 samples.

Results

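Amino acids cross the plasma membrane on carrier proteins, and 33 mouse genes for such carriers were read out in embryonic fibroblasts labelled knockout (KO) or wild type (WT) for SIRT3. The 33 genes were chosen by symbol from the solute carrier families Slc1, Slc3, Slc6, Slc7, Slc16, Slc36, Slc38 and Slc43, and all 33 were found among the 23337 genes of the deposited table. The tested libraries were 2 labelled KO (genotype SIRT3 -/-), set against 3 labelled WT. All 5 came from strain 129Sv fibroblasts that carried the SV40 T antigen as immortalizing gene and grew under normal conditions. Poly-T selected RNA was sequenced, and each library held between 33473103 and 41758681 reads on genes. The labels do not tell whether libraries with the same genotype stem from different cultures, animals or lines, so the p-values reflect only how these 5 libraries scatter, and that scatter may be technical.

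Carriers are named by transport systems. System L carriers exchange large neutral amino acids such as leucine, and their main member in growing cells, the LAT1 light chain encoded by Slc7a5, reaches the surface only when joined to the heavy chain encoded by Slc3a2. System A carriers (Slc38a1, Slc38a2) use the sodium gradient to accumulate glutamine, alanine and other small neutral amino acids, and cationic carriers (Slc7a1, Slc7a2, Slc7a3) bring in arginine and lysine. Leucine, arginine and glutamine taken up in this way feed protein synthesis and are sensed by the kinase complex mTORC1 at the lysosome, while shortage of amino acids acts through the kinase GCN2 and the transcription factor ATF4. The list also holds genes whose products are better known from elsewhere or for other cargo: Slc38a9, Slc38a7 and Slc36a1 proteins act at lysosomes, the Slc6a17 protein at synaptic vesicles of neurons, the Slc6a8 protein carries creatine, the Slc6a6 protein taurine and the Slc43a3 protein purine nucleobases.

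Promoter windows of 300 bases, from 250 before to 50 after a start site, were read from RefSeq (build GRCm38.p6) for 23 of the 33 genes, with 33 windows in all. No window was available for Slc7a5, Slc7a2, Slc7a3, Slc7a4, Slc6a6, Slc6a8, Slc6a15, Slc38a1, Slc38a3 and Slc43a3, so these genes were not searched. Windows were searched on both strands for the ATF4 and C/EBP composite element (CARE, letters TGATGNAA), the E-box (CACGTG) that MYC and TFEB family factors can bind, and the cAMP response element (CRE, TGACGTCA). The CARE letters occurred in 3 of the 33 windows (of Slc1a4 and Slc7a7), against 3.97% of all 32851 promoter windows. By gene that is 2 of 23, as overlapping windows of Slc7a7 share a CARE. The E-box occurred in 4 of the 33 (of Slc36a1, Slc38a5, Slc38a7 and Slc43a1), against 7.15% of all windows, and the CRE in 1 of the 33 (of Slc38a6), against 1.79%. No 2 kinds of motif overlapped in these windows. A match describes the letters only. Printed 5′ to 3′, with motifs in capitals (the CARE of Slc1a4 stands as its reverse complement), are the windows of 3 called genes of different transport systems that hold a motif, and that of the heavy chain gene Slc3a2, which holds none of the 3. The Slc3a2 window belongs to a start inside the gene (8706882 to 8723369), and so does the Slc43a1 window (gene from 84838855 to 84863586). The outer ends of these genes were not searched. Some windows not printed, such as those of Slc43a2 and Slc1a2, also lie inside their genes.
Slc1a4 (chr11:20332664-20332963, minus strand): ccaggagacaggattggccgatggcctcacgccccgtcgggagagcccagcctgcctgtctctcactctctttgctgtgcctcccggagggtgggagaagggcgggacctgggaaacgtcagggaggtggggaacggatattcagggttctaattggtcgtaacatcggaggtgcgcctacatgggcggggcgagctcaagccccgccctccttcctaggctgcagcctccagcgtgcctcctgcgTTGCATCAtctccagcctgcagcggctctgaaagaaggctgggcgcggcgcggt
Slc36a1 (chr11:55204090-55204389, plus strand): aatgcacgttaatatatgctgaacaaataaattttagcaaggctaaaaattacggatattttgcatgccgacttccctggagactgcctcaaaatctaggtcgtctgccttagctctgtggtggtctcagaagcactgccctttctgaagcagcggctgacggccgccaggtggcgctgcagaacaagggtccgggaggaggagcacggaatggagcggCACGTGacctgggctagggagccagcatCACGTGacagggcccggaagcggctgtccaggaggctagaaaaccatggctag
Slc43a1 (chr2:84840073-84840372, plus strand): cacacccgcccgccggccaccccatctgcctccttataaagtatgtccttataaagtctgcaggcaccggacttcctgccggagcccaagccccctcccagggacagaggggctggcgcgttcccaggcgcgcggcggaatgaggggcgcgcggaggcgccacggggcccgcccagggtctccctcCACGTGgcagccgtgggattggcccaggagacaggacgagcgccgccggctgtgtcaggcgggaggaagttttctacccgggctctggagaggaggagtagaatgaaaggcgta
Slc3a2 (chr19:8713848-8714147, minus strand): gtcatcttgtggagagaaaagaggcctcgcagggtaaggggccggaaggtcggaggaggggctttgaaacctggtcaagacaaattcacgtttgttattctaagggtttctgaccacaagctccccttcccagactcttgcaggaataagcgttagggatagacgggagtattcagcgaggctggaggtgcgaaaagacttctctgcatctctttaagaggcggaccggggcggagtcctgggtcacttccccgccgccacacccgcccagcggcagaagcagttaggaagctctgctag

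Sirt3, the targeted gene, was at 200.4 and 216.8 normalized read counts in KO-labelled libraries, against 169.7, 149.4 and 118.4 in WT-labelled libraries (log2 fold change 0.53, limma, adjusted p = 0.00445), in a region where tested genes within 5 Mb had a median of 0.31. A normalized read count is the number of reads on a gene after scaling for library size. The targeted transcript was thus not reduced in the libraries labelled KO, gene totals do not separate exons, and every direction is given between libraries as labelled. Fibroblast markers were abundant in both groups, with 13 markers summing to between 5077 and 5179 RPKM (reads scaled by gene length and library size) in KO-labelled and between 5929 and 6122 RPKM in WT-labelled libraries. Of 12 tested fibroblast markers 2 (Col1a1 and Col1a2) were higher and 7, led by Pdgfra, Col3a1 and Fbn1, lower in KO-labelled libraries, where 32.6% of all 13062 tested genes were higher and 32.6% lower at an adjusted p under 0.05. Lum had at most 1 read per library. Marker sums of other cell types were low: 0.437 to 0.478 RPKM in KO-labelled and 0.167 to 0.196 RPKM in WT-labelled libraries for 6 epithelial genes, and 0.880 to 1.29 against 0.140 to 0.267 RPKM for 4 muscle genes. The 4 endothelial genes summed to 0.368 to 0.374 RPKM in KO-labelled and 0.159 to 0.222 RPKM in WT-labelled libraries. For 5 immune genes the sums were 1.41 to 1.53 against 1.81 to 2.03 RPKM, and for 5 neural genes 0.0248 to 0.0293 against 0.00520 to 0.0131 RPKM. Krt5, Myod1, Snap25, Rbfox3 and Sox10 were at 0 reads in all 5 libraries. In these bulk samples fewer cells of a type and less RNA per cell cannot be told apart, and the part of these markers in the transporter results was not tested.

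The summed transcript of the 33 listed transporters differed little between the groups, by a ratio of 1.05, and its makeup differed more. That ratio holds for this list only. Outside it, 25 other carriers summed to 49.7 to 50.7 RPKM in KO-labelled and 99.5 to 101.5 RPKM in WT-labelled libraries. Summed over the 33 genes, the KO-labelled libraries held 628.2 and 649.3 RPKM, against 601.8, 614.3 and 609.8 RPKM in the WT-labelled libraries. Slc7a5 made up 23.8% ± 0.929 of that sum in KO-labelled libraries (SD, n = 2) and 9.46% ± 0.107 in WT-labelled libraries (SD, n = 3). The system A gene Slc38a2 made up 19.2% ± 0.0117 in KO-labelled and 25.5% ± 0.449 in WT-labelled libraries. The taurine carrier gene Slc6a6 made up 14.97% ± 0.509 in KO-labelled and 18.9% ± 0.159 in WT-labelled libraries. These shares are a description and carry no test.

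**Figure D1:**
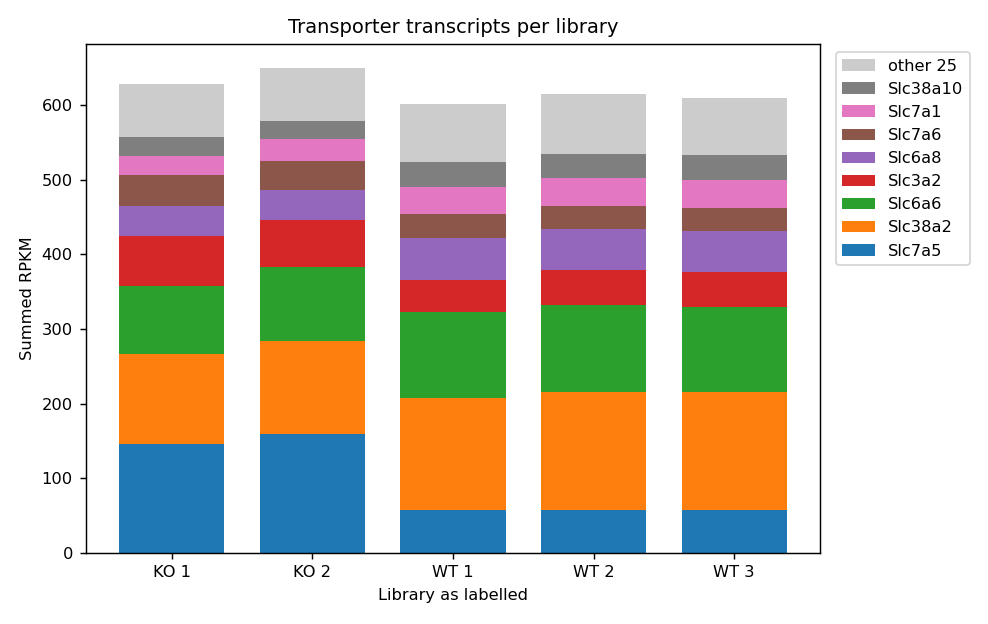
Summed RPKM of the 33 transporter genes (vertical axis) in each library as labelled (horizontal axis), with the 8 most abundant genes in separate shades and the other 25 together in light grey. The totals are close to each other, while the Slc7a5 block at the base is 145.1 and 158.5 RPKM in the KO-labelled libraries and between 57.3 and 58.0 RPKM in the WT-labelled libraries.

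Transcript levels per length ordered the carriers differently in the groups. In KO-labelled libraries Slc7a5 stood first at 151.8 ± 9.48 RPKM (SD, n = 2), followed by Slc38a2 at 122.7 ± 2.79, Slc6a6 at 95.7 ± 5.49 and Slc3a2 at 64.7 ± 2.25 RPKM. In WT-labelled libraries Slc38a2 stood first at 155.4 ± 4.28 RPKM (SD, n = 3), followed by Slc6a6 at 115.1 ± 0.892, Slc7a5 at 57.6 ± 0.382, Slc6a8 at 55.4 ± 0.635 and Slc3a2 at 45.3 ± 1.66 RPKM. The ranges of these neighbours did not overlap within a group. Slc7a6 and Slc6a8 shared the fifth and sixth place in the KO-labelled libraries, both at 40.3 RPKM with overlapping ranges. Slc7a1, Slc38a10 and, in WT-labelled libraries, Slc7a6 closed the group of abundant carriers at 24.6 to 37.1 RPKM. Below them Slc1a4, Slc38a7, Slc38a1, Slc6a9, Slc36a4 and Slc36a1 lay between 6.10 and 14.9 RPKM as group means. In both groups 18 genes averaged at least 1 RPKM, 17 of them in common.

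**Figure D2:**
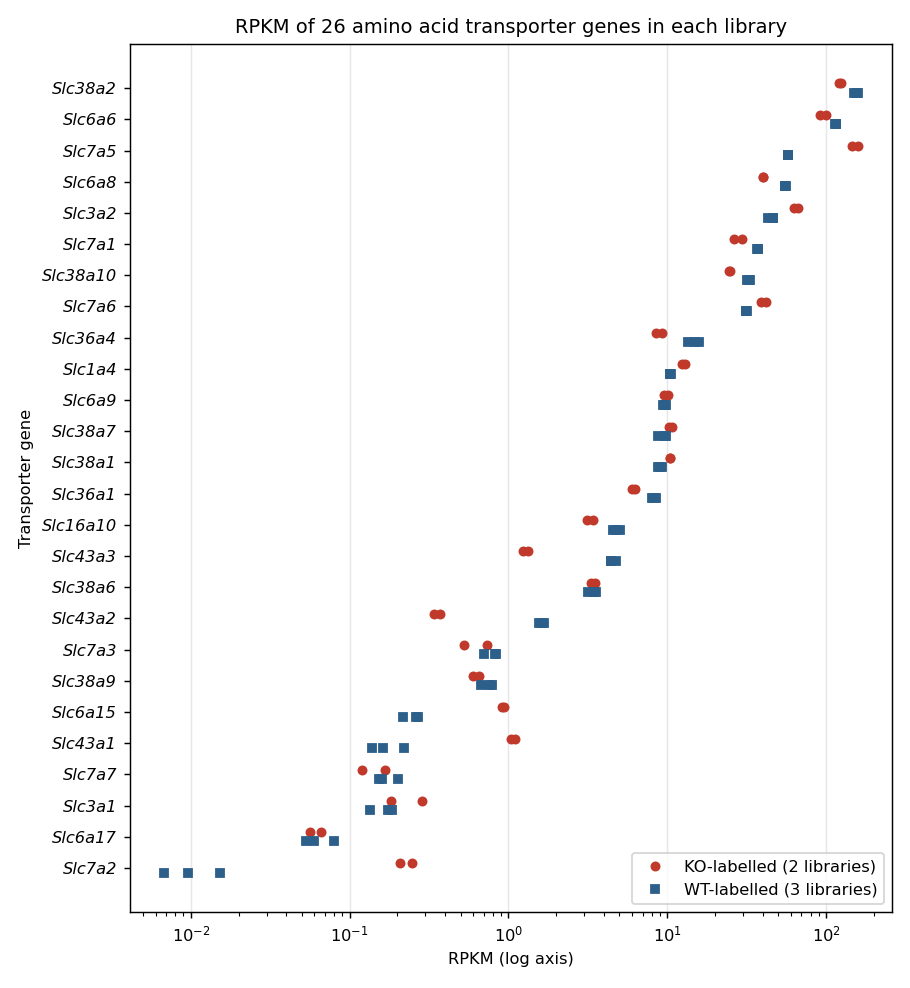
RPKM on a log axis (horizontal) of the 26 transporters with enough reads for a test (vertical, ordered by the WT-labelled mean), with circles for the 2 KO-labelled and squares for the 3 WT-labelled libraries. Slc7a2, Slc43a1 and Slc6a15 stand far to the right and Slc43a2 and Slc43a3 far to the left in the KO-labelled libraries, while libraries of both groups overlap for 6 genes without a call, Slc3a1, Slc6a9, Slc6a17, Slc7a3, Slc7a7 and Slc38a6.

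A gene was tested when it had 10 or more normalized read counts in at least 2 libraries, which 26 of the 33 carriers and 13062 genes in all passed. Each fold change sets KO-labelled over WT-labelled libraries after adding 1 to the value and taking log2, which understates changes of low genes, and a call is a Benjamini-Hochberg adjusted p under 0.05 over the 13062 genes (limma, two-sided). Of the 26 tested carriers 9 were higher and 10 lower in KO-labelled libraries, while 32.6% of all tested genes were called higher and 32.6% lower. Either way 73.1% of the tested carriers were called, against 65.3% of all tested genes, so the share is near the background. By the authors' deposited table, carriers with a call were 8 higher and 10 lower at an adjusted p under 0.05, where 50.5% of all genes with an adjusted p passed in either direction. Groups did not overlap for 20 of the 26, against 75.4% of all tested genes. A call with a change of at least 1.5-fold was made for 7 of the 26, against 24.4% of all tested genes, and of at least 2-fold for 6 of the 26, against 13.0%. Slc7a2, among the 9 higher and in both of these counts, passed the filter only through the KO-labelled libraries. The median log2 fold change was -0.13 over the 26 and -0.0023 over all tested genes, and the median size was 0.41 over the 26 and 0.30 over all tested genes.

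**Figure D3:**
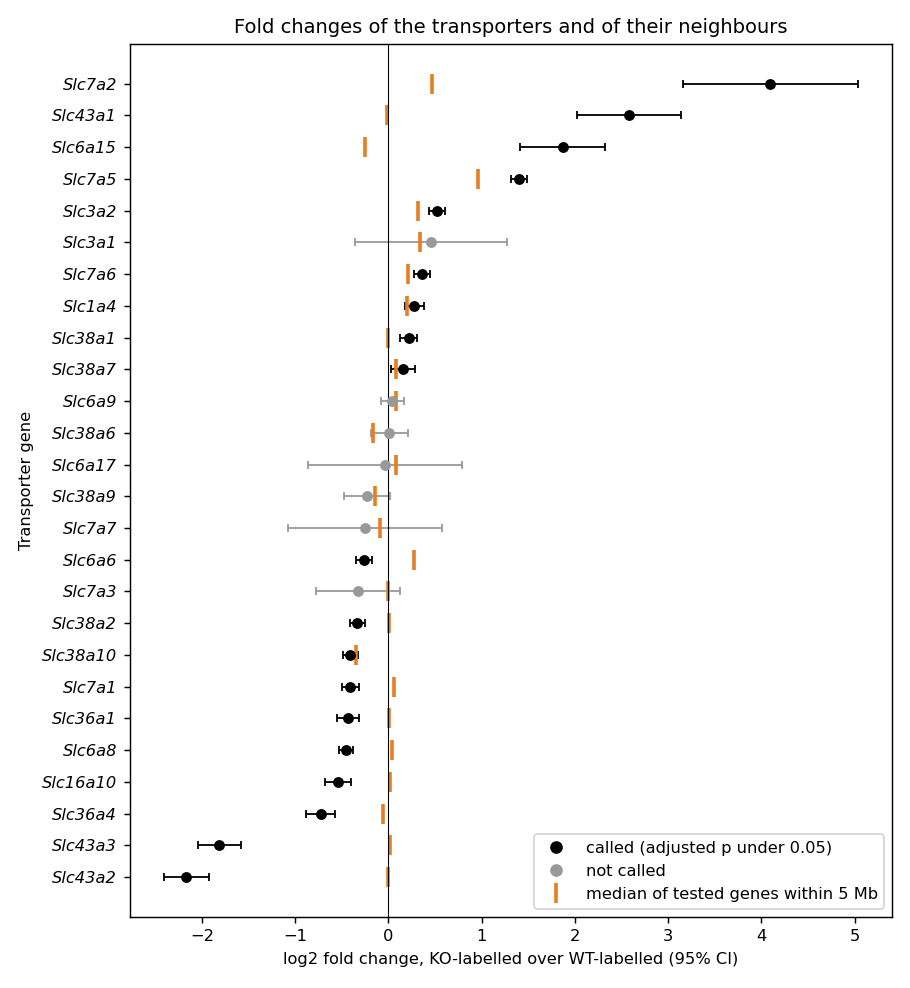
Log2 fold change with its 95% confidence interval (horizontal axis) for each of the 26 tested carriers (vertical axis), in black where called and grey where not, with an orange bar at the median log2 fold change of the tested genes within 5 Mb. Changes run from -2.17 for Slc43a2 to 4.09 for Slc7a2, and the orange bar stands at 0.96 for Slc7a5 and between -0.35 and 0.46 for the other carriers.

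Among system L genes, Slc7a5 rose, Slc43a1 rose and Slc43a2 fell in the KO-labelled libraries. Slc7a5 (chromosome 8, 121881146 to 121907686, mm10) had 18794 and 20797 normalized read counts in KO-labelled libraries, against 7433, 7452 and 7522 in WT-labelled libraries. The groups lay far apart, at 19796 ± 1417 (SD, n = 2) and 7469 ± 46.8 (SD, n = 3), which is a 2.65-fold difference (log2 fold change 1.40, SE 0.0412, limma, adjusted p = 1.53e-17). Slc43a1, for the facilitative leucine carrier LAT3 (chromosome 2, 84838855 to 84863586), had 111.2 and 120.1 normalized read counts in KO-labelled libraries, against 15.03, 23.7 and 17.6 in WT-labelled libraries. It was 5.99-fold higher in KO-labelled libraries (log2 fold change 2.58, SE 0.269, limma, adjusted p = 2.81e-08). RefSeq places D930003E18Rik over 1354 of the bases of Slc43a1, and reads of the 2 cannot be told apart in gene totals. Slc43a2, for its relative LAT4 (chromosome 11, 75529915 to 75577575), went the other way, with 99.1 and 92.3 normalized read counts in KO-labelled libraries, against 446.4, 414.5 and 437.6 in WT-labelled libraries. It was 4.49-fold higher in WT-labelled libraries (log2 fold change -2.17, SE 0.114, limma, adjusted p = 3.88e-13). The ratio of Slc43a1 to Slc43a2 in RPKM was thus 2.78 and 3.22 in KO-labelled libraries, against 0.0833, 0.142 and 0.0994 in WT-labelled libraries. Neither gene averaged more than 1.62 RPKM in a group, far under Slc7a5, and Slc7a8, for the system L light chain LAT2, had between 0 and 3 reads per library.

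Slc7a5 lies in a stretch of chromosome 8 where most genes were higher in the KO-labelled libraries. The 96 tested genes within 5 Mb had a median log2 fold change of 0.96, with quartiles of 0.66 and 1.22, and 84 of them (87.5%) were called higher and 4 lower, against 32.6% each way of all tested genes. Of the 96, 15 were at or above the 1.40 of Slc7a5. With the neighbours' median removed its log2 fold change was 0.44 (limma, adjusted p = 9.23e-09), and over all alternatives tried the value ran from 0.41 to 1.48 with adjusted p at or under 7.97e-08. The median was taken off as a fixed value, so the adjusted p after its removal leaves out the spread among the neighbours. What sets this stretch apart was not tested.

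**Figure D4:**
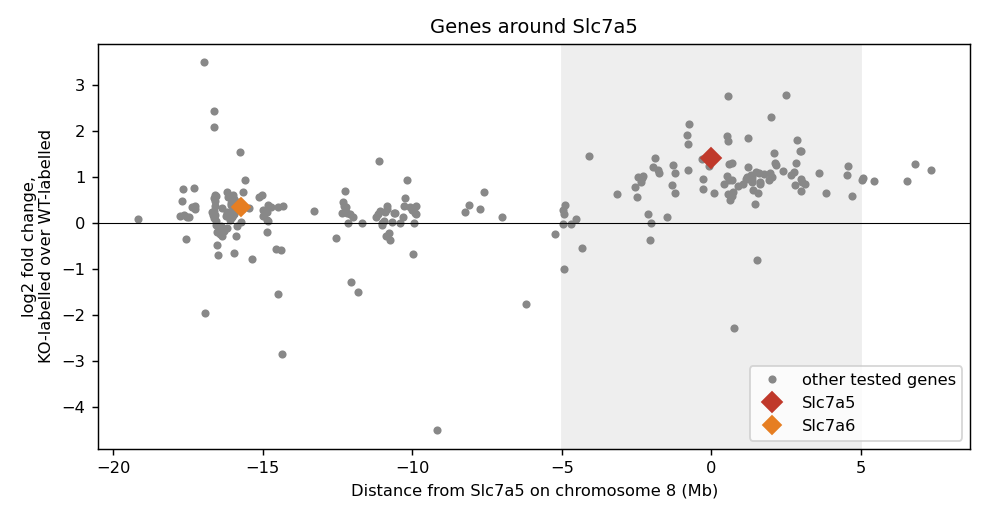
Log2 fold change (vertical axis) of tested genes on chromosome 8 against their distance from Slc7a5 in Mb (horizontal axis), with the 5 Mb to either side shaded. The shaded genes have quartiles of 0.66 and 1.22, and Slc7a6, 15.7 Mb away, sits at 0.36 among genes with a median of 0.21.

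The heavy chain gene Slc3a2 rose too, by less than its main light chain. Slc3a2 (chromosome 19, 8706882 to 8723369) had 7224 and 6967 normalized read counts in KO-labelled libraries, against 4736, 5072 and 5041 in WT-labelled libraries. The groups did not overlap, and the difference was 1.43-fold (log2 fold change 0.52, SE 0.0413, limma, adjusted p = 3.80e-10). Genes within 5 Mb of it had a median log2 fold change of 0.31, and with that removed Slc3a2 was at 0.21 (limma, adjusted p = 0.000227, and at most 0.00115 over all alternatives). Here too the adjusted p after removal leaves out the spread among the neighbours. The RPKM of Slc7a5 per RPKM of Slc3a2 was 2.19 and 2.51 in KO-labelled libraries, against 1.32, 1.24 and 1.26 in WT-labelled libraries. Summed over the light chain genes Slc7a5, Slc7a6, Slc7a7, Slc7a8 and Slc7a10, the ratio was 2.82 and 3.13 in KO-labelled libraries, against 2.04, 1.92 and 1.95 in WT-labelled libraries. The other heavy chain gene, Slc3a1, which serves cystine uptake in kidney, was scarce at 15.4 and 24.5 normalized read counts in KO-labelled libraries, against 11.5, 14.8 and 15.7 in WT-labelled libraries, and did not pass (limma, adjusted p = 0.314).

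Of the light chains that exchange cationic for neutral amino acids (system y+L), Slc7a6 was abundant and Slc7a7 scarce. Slc7a6 (chromosome 8, 106168219 to 106198714) had 5735 and 5410 normalized read counts in KO-labelled libraries, against 4288, 4334 and 4391 in WT-labelled libraries. It rose 1.28-fold (log2 fold change 0.36, SE 0.0406, limma, adjusted p = 9.29e-08), and with the median of 0.21 of its 108 neighbours within 5 Mb removed it was at 0.15 (adjusted p = 0.00361, and at most 0.0136 over all alternatives). Of the 108, 31 were at or above the 0.36 of Slc7a6, a spread that the adjusted p after removal leaves out. Slc7a7 had between 11.01 and 15.6 normalized read counts in KO-labelled libraries and between 14.1 and 18.8 in WT-labelled libraries, at a log2 fold change of -0.25 that did not pass (95% confidence interval -1.08 to 0.57).

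Among the cationic carriers the abundant Slc7a1 was lower and the rare Slc7a2 had more reads in KO-labelled libraries. Slc7a1, for the housekeeping arginine carrier CAT1 (chromosome 5, 148327410 to 148399904), had 6967 and 7921 normalized read counts in KO-labelled libraries, against 9708, 9906 and 9941 in WT-labelled libraries. It fell by 0.41 on the log2 scale (SE 0.0448, limma, adjusted p = 6.68e-08), without overlap. Slc7a2, for the inducible carrier CAT2 (chromosome 8, 40862341 to 40922070), had 60.6 and 72.3 normalized read counts in KO-labelled libraries, against 4.42, 1.98 and 2.78 in WT-labelled libraries. In whole reads that is 55 and 65 in KO-labelled libraries, against 5, 2 and 3 in WT-labelled libraries, and it passed the filter only through the KO-labelled libraries. Its call therefore supports nothing here, and its values are a description. From the 4 libraries whose reads could be recovered with certainty, 120 reads in KO-labelled and 8 in WT-labelled libraries gave an 18.4-fold difference (exact 95% interval 9.02 to 43.5, counting error only). The fitted log2 fold change was 4.09 (SE 0.451, limma, adjusted p = 6.76e-08) and ran from 1.57 on RPKM with a pseudocount of 0.1, and 2.74 in the authors' deposited table, to 4.32 without WT replicate 1. Its 21 tested neighbours within 5 Mb had a median of 0.46, and none of them reached the value of Slc7a2. Even so, Slc7a2 stayed at 0.228 RPKM in KO-labelled libraries beside 27.9 RPKM of Slc7a1. Slc7a3, for the third cationic carrier, had 63.9 and 46.7 normalized read counts in KO-labelled libraries, against 73.4, 61.3 and 72.2 in WT-labelled libraries, and did not pass (limma, adjusted p = 0.195).

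The system A genes moved in opposite directions although they lie 43.953 kb apart on chromosome 15. Slc38a2 (96687392 to 96699728), for the carrier SNAT2 whose transcript is known to be raised by amino acid shortage, had 20592 and 21542 normalized read counts in KO-labelled libraries, against 25712, 27135 and 26861 in WT-labelled libraries. It fell by 0.33 on the log2 scale (SE 0.0384, limma, adjusted p = 1.24e-07). Slc38a1 (96571418 to 96643438), for the relative SNAT1, had 3222 and 3277 normalized read counts in KO-labelled libraries, against 2789, 2879 and 2716 in WT-labelled libraries, a rise of 0.22 (SE 0.0440, limma, adjusted p = 0.000185). The genes within 5 Mb of each had medians of 0.00085 for Slc38a1 and 0.011 for Slc38a2. The system N genes, for glutamine carriers of liver and brain, were nearly silent: Slc38a3 had between 2 and 11 reads in KO-labelled and between 0 and 5 in WT-labelled libraries, and Slc38a5 had 1 and 3 reads in KO-labelled and 0 in each WT-labelled library, where a count of 0 allows up to 3.

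The remaining Slc38 genes, some of them lysosomal, gave 1 fall, in Slc38a10, and 1 rise, in Slc38a7, and neither call held in all alternatives. Slc38a10 (chromosome 11, 120103951 to 120151351), for a carrier whose cargo is poorly known, had 4937 and 4926 normalized read counts in KO-labelled libraries, against 6645, 6407 and 6565 in WT-labelled libraries (log2 fold change -0.41, SE 0.0382, limma, adjusted p = 5.62e-09). Its 140 neighbours within 5 Mb had a median of -0.35, and with that removed the call was lost (log2 fold change -0.060, adjusted p = 0.177). Slc38a7, for a lysosomal glutamine exporter (chromosome 8, 95835920 to 95853577), had 1293 and 1259 normalized read counts in KO-labelled libraries, against 1180, 1202 and 1059 in WT-labelled libraries. Its rise of 0.16 (limma, adjusted p = 0.0346) was kept in 8 of 18 alternatives. It was lost in the authors' deposited table (adjusted p = 0.0949), when WT replicate 3 was left out (0.224), and when either KO replicate 1 (0.173) or 2 (0.0856) was, and the adjusted p ranged from 0.0203 to 0.829. Slc38a9, for the lysosomal arginine sensor upstream of mTORC1, had 215.8 and 200.2 normalized read counts in KO-labelled libraries, against 221.8, 258.2 and 253.5 in WT-labelled libraries. The groups did not overlap, yet the difference did not pass (log2 fold change -0.23, 95% confidence interval -0.48 to 0.020, limma, adjusted p = 0.0983). Slc38a6 was at 362.3 and 387.0 in KO-labelled libraries, against 348.2, 391.7 and 375.6 in WT-labelled libraries, at 0.012 with an interval of -0.19 to 0.21.

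The proton-coupled carriers and the aromatic carrier were all lower in KO-labelled libraries. Slc36a4 (chromosome 9, 15709738 to 15742388), for a high-affinity carrier of proline and tryptophan, had 665.2 and 617.2 normalized read counts in KO-labelled libraries, against 1074, 1143 and 973.2 in WT-labelled libraries. This was the larger fall of the pair, 1.65-fold higher in WT-labelled libraries (log2 fold change -0.73, SE 0.0731, limma, adjusted p = 1.66e-08). Slc36a1, for the lysosomal and surface carrier PAT1, had 1160 and 1228 normalized read counts in KO-labelled libraries, against 1645, 1569 and 1619 in WT-labelled libraries (log2 fold change -0.43, limma, adjusted p = 4.89e-07). Its promoter window, printed above, holds 2 E-boxes that begin 31 and 3 bases before the start, so the second runs across it. Slc16a10, for the uniporter of tyrosine, phenylalanine and tryptophan, had 825.9 and 762.9 normalized read counts in KO-labelled libraries, against 1096, 1157 and 1217 in WT-labelled libraries (log2 fold change -0.54, limma, adjusted p = 2.83e-07).

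In the Slc6 family, which couples uptake to sodium and chloride, the abundant members fell and a rare one rose. Slc6a6 (chromosome 6, 91684048 to 91759063) had 20870 and 22928 normalized read counts in KO-labelled libraries, against 26146, 26501 and 26059 in WT-labelled libraries. It fell by 0.26 (SE 0.0405, limma, adjusted p = 7.80e-06), while its 56 neighbours within 5 Mb had a median of 0.28. The creatine carrier gene Slc6a8 (chromosome X, 73673133 to 73682502) had 5910 and 5982 normalized read counts in KO-labelled libraries, against 8246, 8123 and 8073 in WT-labelled libraries. It fell by 0.45 (SE 0.0369, limma, adjusted p = 5.57e-10). Slc6a15, for a carrier of branched-chain amino acids and proline best known from neurons (chromosome 10, 103367808 to 103419379), had 122.2 and 127.9 normalized read counts in KO-labelled libraries, against 29.2, 36.6 and 35.2 in WT-labelled libraries. It was 3.65-fold higher in KO-labelled libraries (log2 fold change 1.87, SE 0.219, limma, adjusted p = 1.63e-07), in a region whose 16 tested neighbours had a median of -0.26. It shares 1448 bases with the RefSeq gene 6430590A10Rik, with the same limit. The glycine carrier gene Slc6a9 had 1154 and 1243 normalized read counts in KO-labelled libraries, against 1181, 1137 and 1176 in WT-labelled libraries, with a 95% interval of -0.081 to 0.16 around 0.041. Slc6a17 was scarce, with 13.3 to 15.4 normalized read counts in KO-labelled and 12.4 to 18.5 in WT-labelled libraries, and did not pass.

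**Figure D5:**
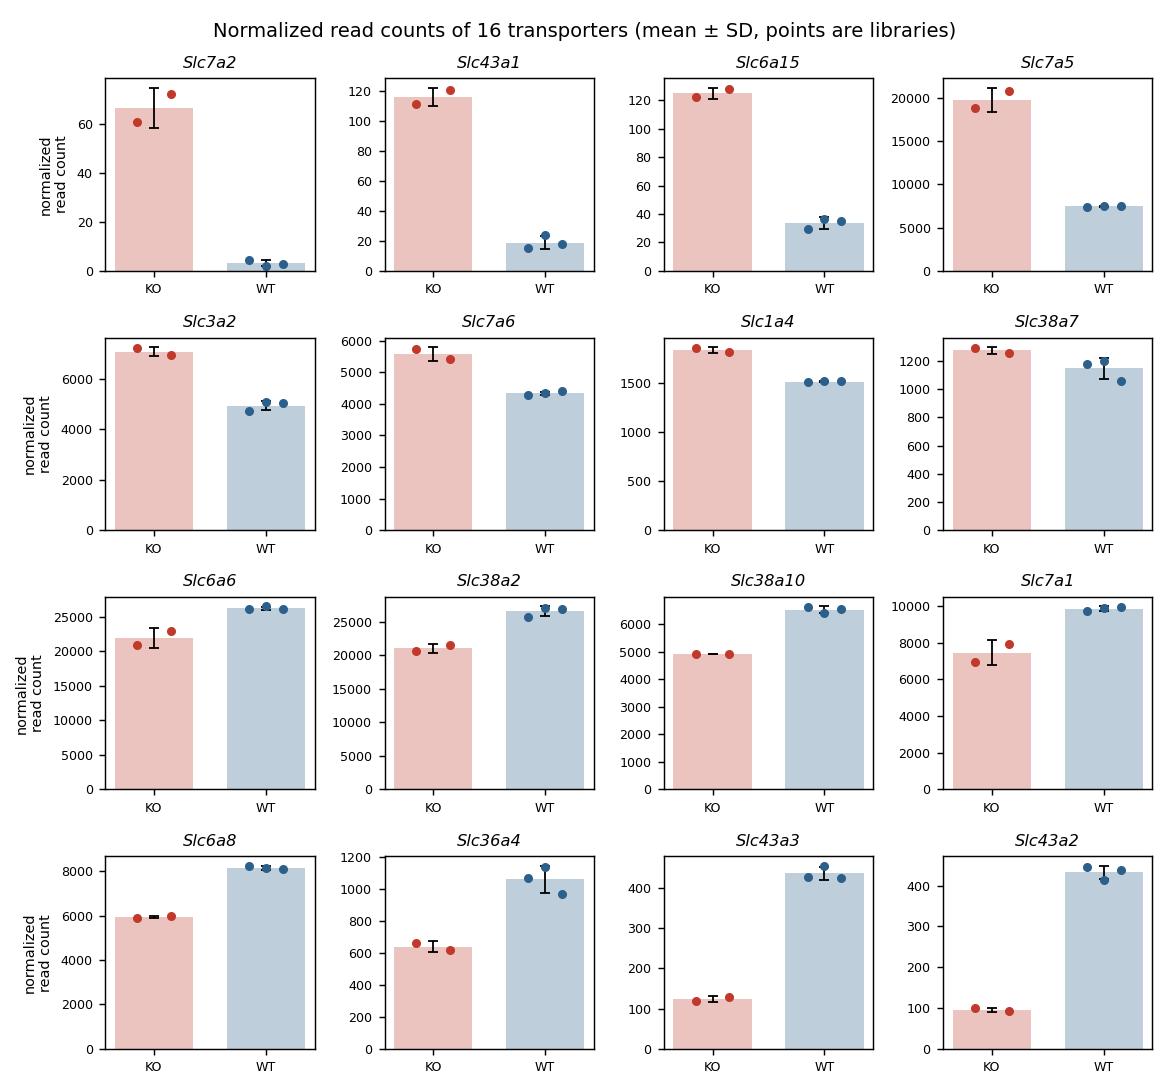
Normalized read counts (vertical axes, from 0) of 16 carriers in KO-labelled (left bar, 2 libraries) and WT-labelled (right bar, 3 libraries) samples, with bars at the mean, whiskers of 1 SD and points for libraries. Panels run from Slc7a2, the largest rise, to Slc43a2, the largest fall among the 26 tested carriers, and the points of the groups do not overlap in any of the 16 panels. The 16 were chosen partly for their change, and the groups do not overlap for 75.4% of all tested genes.

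Slc1a4, for the serine and alanine exchanger ASCT1 (chromosome 11, 20302180 to 20332713), had 1862 and 1818 normalized read counts in KO-labelled libraries, against 1511, 1520 and 1524 in WT-labelled libraries. Its rise of 0.28 (SE 0.0502, limma, adjusted p = 5.46e-05) was lost with the median of 0.20 of its 36 neighbours removed (log2 fold change 0.077, adjusted p = 0.199, the highest over all alternatives). The CARE letters in its window, printed above, begin 4 bases before the start. The other small neutral exchanger, Slc7a10, had 0 reads in all 5 libraries. The glutamate carrier genes of the list were close to silent, with 6 and 1 reads of Slc1a1 and 3 and 5 reads of Slc1a2 in KO-labelled libraries, against at most 1 and at most 5 reads in WT-labelled libraries. Slc7a4, a relative of the cationic carriers with no known cargo, had between 1 and 10 reads per library.

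Slc43a3, for the purine nucleobase carrier of the LAT3 family (chromosome 2, 84936545 to 84958509), had 117.8 and 129.0 normalized read counts in KO-labelled libraries, against 427.8, 455.0 and 424.6 in WT-labelled libraries. It was 3.51-fold higher in WT-labelled libraries (log2 fold change -1.81, SE 0.110, limma, adjusted p = 4.06e-12). It lies 72.958 kb from Slc43a1, which rose 5.99-fold, and genes within 5 Mb of both had medians of 0.019 for Slc43a3 and -0.011 for Slc43a1. Neighbouring carrier genes of 1 family thus differed in direction at 2 places, Slc43a1 with Slc43a3 and Slc38a1 with Slc38a2.

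Of 25 other carriers of amino acids and related cargo, 4 were tested, and 2 of these were lower and 0 higher in KO-labelled libraries, where 65.3% of all tested genes were called either way. Slc1a3, for the glutamate and aspartate carrier GLAST, averaged 1091 ± 33.2 normalized read counts in KO-labelled and 8497 ± 121 in WT-labelled libraries (SD, n = 2 and 3, limma, adjusted p = 7.02e-23). Slc1a5, for the glutamine exchanger ASCT2, was 1.21-fold higher in WT-labelled libraries (limma, adjusted p = 0.000268), at a log2 fold change of -0.27 in a region with a median of -0.20. Slc7a11, for the cystine light chain that also pairs with Slc3a2, did not pass at 0.23 (limma, adjusted p = 0.0537), nor did Slc38a4 at -0.018 (0.715).

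The shares called in the other pathway lists are to be read against the 32.6% each way of all tested genes. Of 18 tested genes of the amino acid shortage response, 8 were higher and 8 lower in KO-labelled libraries, and of 34 of amino acid sensing by mTORC1, 12 were higher and 12 lower, so the share in the mTORC1 list is near that of all genes. Asns, for asparagine synthetase, averaged 2174 ± 71.1 normalized read counts in KO-labelled and 896.1 ± 5.69 in WT-labelled libraries (SD, n = 2 and 3, limma, adjusted p = 1.26e-14), a log2 fold change of 1.28 in a region whose 27 tested genes within 5 Mb had a median of 0.54. Atf5 and Cebpb, for transcription factors of the response, were 2.19-fold and 1.88-fold higher in WT-labelled libraries (limma, adjusted p = 8.17e-14 and 5.53e-12). Mios, for a GATOR2 subunit, was 1.77-fold higher in KO-labelled libraries, at a log2 fold change of 0.82 in the same region of chromosome 6, where its own neighbours had a median of 0.52. Rragb, for a Rag GTPase, was 3.07-fold and Rptor, for the mTORC1 subunit raptor, 1.35-fold higher in WT-labelled libraries (limma, adjusted p = 1.80e-09 and 8.73e-09). Rptor was at a log2 fold change of -0.43 beside a median of -0.35 over its 142 neighbours, in the region that holds Slc38a10. Of 7 genes for regulators and partners of carriers, 2 were higher and 4 lower, against the same 32.6% each way. Txnip, which restrains glucose carriers, was 2.99-fold and Bsg, the partner of monocarboxylate carriers, 1.26-fold higher in WT-labelled libraries, and Myc was 1.24-fold higher in KO-labelled libraries (limma, adjusted p = 2.39e-14, 6.74e-08 and 2.02e-06). The log2 fold change of Bsg was -0.33, and its neighbours had a median of -0.29.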

How the data were processed

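RNA of 5 libraries (2 labelled KO, 3 labelled WT, grouped by their titles) was made into Nextera XT libraries after poly-T selection and run on a NextSeq, as the labels' protocols state. STAR, DESeq2 and mm10 appear in the submitters' processing notes. For the counting program, annotation and strand setting no source used here gives a name, and 14 of the 26 tested carriers overlap another RefSeq gene, with which reads may be shared.

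The authors deposited, for 23337 genes, a signal per library that is read counts divided by a size factor (within 0.1 reads, 100% of values fell on whole reads), RPKM, log2 fold changes with standard errors, a Wald score and p-values. As these are not raw counts, limma 3.58.1 (R 4.3.3, trended prior, genotype as the factor) was run on log2(value + 1) for genes with 10 or more in at least 2 libraries. It was also run on simulated counts with the same dispersion for every gene and few changed genes. That setting differs from these data, so the run does not bear on the calls here. On average, neither pair of replicates compared agreed within sampling noise. Chi-square over its degrees of freedom averaged 5.63 between the KO replicates and 7.27 between WT replicates 1 and 3. The medians over genes were far lower and in the other order, at 1.60 and 1.01. Reads of WT replicate 2, whose step of 0.989 is close to 1, stayed out of count tests. Intervals on reads cover counting error only.

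Values per library are given for carriers called with at least 1.5-fold change or among the top 10 by RPKM, and, from each other list, the 3 called genes with the smallest adjusted p are named. Other genes with values were picked after their values were seen. Members and lists were chosen with earlier results of these data known. Positions are those of RefSeq, GRCm38.p6, the assembly mm10 names. Alternatives were pseudocounts of 0.5 and 5, leaving the filter off, a filter on a mean of 50, TMM and median-ratio scaling, RPKM with a pseudocount of 0.1, edgeR 4.0.16 and DESeq2 1.42.0 on recovered reads of 4 libraries, the authors' comparison, removal of the neighbours' median (5 Mb, and 1 Mb added after seeing the data), a replicate block and each library left out.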

Additional observations from a re-analysis of the deposited data

How the results depend on the processing

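Of the 19 calls among the carriers, 16 held in each alternative that gave a value, and the 3 that did not were those of Slc38a7, Slc1a4 and Slc38a10. The counts of carriers called ran from 7 to 9 higher and from 9 to 10 lower, those of all genes from 3537 to 4294 higher and from 3428 to 4293 lower. The 16 calls that held, and the counts of carriers called higher, included Slc7a2 wherever it was tested. Slc7a2 passed the main filter only through the KO-labelled libraries, and the filter on the mean left it out. Its call therefore supports nothing here, in any alternative. With the median of genes within 5 Mb removed, Slc1a4 (0.077), Slc38a10 (-0.060) and Slc38a7 (0.069) lost their calls. With 1 Mb, Slc38a10 was again lost (-0.061) and Slc38a7 reversed to -0.017, and Slc1a4, with 8 tested neighbours there, was not shifted. Slc38a7 was also lost with no filter, on RPKM and with DESeq2. Among carriers without a call, Slc6a9 reversed with neighbours removed (-0.040 within 5 Mb, -0.066 within 1 Mb). With single libraries left out, Slc6a9 ran from -0.013 to 0.095, Slc6a17 from -0.15 to 0.12 and Slc38a6 from -0.036 to 0.059, each thus changing sign. The cause was not tested. Leaving out a library labelled KO leaves 1, assumed to vary like the others. The replicate numbers did not pair the libraries (correlations of deviations of -0.00975 for number 1 and -0.00500 for number 2); with the number as a block 8 carriers were higher and 10 lower, Slc38a7 was lost (0.099) and Slc6a17 reversed (0.12). Few reads limit what can be said of Slc3a1, Slc6a17 and Slc7a7, whose log2 fold changes had 95% intervals of -0.35 to 1.27, -0.86 to 0.79 and -1.08 to 0.57.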

Other observations

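Genes that handle the cargo of these carriers were looked up in lists written after the carriers' values were seen. Of 10 tested genes of branched-chain amino acid breakdown, 4 were higher and 4 lower in the KO-labelled libraries, against 32.6% each of all tested genes. Bcat1, for the cytosolic transaminase of leucine, isoleucine and valine, averaged 6587 ± 83.7 normalized read counts in KO-labelled and 2930 ± 27.8 in WT-labelled libraries (SD, n = 2 and 3), a 2.25-fold difference (limma, adjusted p = 2.13e-16). Dbt and Bckdha, for subunits of the branched-chain ketoacid dehydrogenase, were 1.79-fold and 1.42-fold higher in WT-labelled libraries, whereas Bckdhb, for another subunit and named after its values were seen, was 1.39-fold higher in KO-labelled libraries (limma, adjusted p = 5.53e-09, 8.43e-06 and 0.000212). Bckdha was at -0.51 on the log2 scale beside a neighbours' median of -0.20.

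Of 5 tested genes of arginine use, Odc1, for the first enzyme of polyamine synthesis, averaged 18421 ± 272 normalized read counts in KO-labelled and 28191 ± 465 in WT-labelled libraries, and Oat, for ornithine aminotransferase, 3841 ± 140 and 2516 ± 89.1 (SD, n = 2 and 3, limma, adjusted p = 2.69e-12 and 1.50e-10). Oat was at a log2 fold change of 0.61 beside a median of 0.32 over genes within 5 Mb. Asl was 1.14-fold higher in WT-labelled libraries, and Arg1 and Arg2 did not pass. Of 3 tested genes of taurine synthesis, Csad was 1.87-fold and Ado 1.13-fold higher in WT-labelled libraries (limma, adjusted p = 9.11e-12 and 0.000534). Ado was at a log2 fold change of -0.18 beside a neighbours' median of -0.15. A tie to the lower Slc6a6 in KO-labelled libraries was not tested. The calls in the arginine, taurine and creatine lists are to be read against the 65.3% of all tested genes called either way. Of 3 tested creatine genes, Ckb was 2.02-fold higher in KO-labelled libraries (limma, adjusted p = 8.59e-05) and Gamt did not pass. Gatm had 25 and 18 reads in KO-labelled libraries, against 4, 5 and 4 in WT-labelled libraries, and entered the test only through the KO-labelled libraries, so its call supports nothing here.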
